A study of Mus musculus with 6 samples.

Results

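Neural progenitor and regional identity genes are 10 mouse genes whose products mark neural stem and progenitor cells or set the position that such cells take in the developing brain. The genes were Sox2, Sox1 and Nes (progenitor genes), Pax6, Emx1, Emx2 and Neurog2 (dorsal forebrain), Olig2 and Nkx2-1 (ventral), and Otx2 (anterior). They were chosen by name, 10 of 21911 protein-coding genes of the GENCODE vM21 annotation, and for each the peaks of histone H3 lysine 4 trimethylation (H3K4me3) within 1 kb of any annotated transcript start and across the gene body were collected.

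The mark was profiled by ChIP-Seq in STHdh cells, cultured striatal progenitor cells of mouse (C57BL/6) that serve as a model of Huntington's Disease. Q7SST is the wild-type line STHdhQ7 (STHdh7 in the sample labels), held for 24 h in medium without serum with vehicle, and Q111SST is the mutant line STHdhQ111, which expresses huntingtin with an expanded polyglutamine tract, held in the same way. The other 4 conditions were STHdhQ111 cells in the same medium for 24 h with 10 uM of cyproheptadine (an antihistamine), loxapine (an antipsychotic), diacylglycerol kinase inhibitor II (DKI) or meclizine (an antihistamine). Serum deprivation was therefore common to all 6 conditions, no condition with serum was included, and the wild-type line was never given a compound. Each genotype is a single cell line, so the huntingtin genotype and any other difference between the lines cannot be told apart.

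There was 1 peak list per condition, so that the spread among replicates is unknown and conditions could not be tested against each other; every difference below is one between 2 lists. A weaker peak from fewer cells that carry the mark and one from less of the mark per cell cannot be told apart. The lists held from 30758 peaks (DKI) to 45564 peaks (loxapine), and the read depth behind them is unknown. A gene was called marked where at least 1 bp of a peak lay within 1 kb of any of its transcript starts. Strength is given as a percentile, the position of the gene's strongest start peak by score among all peaks of the same list, because the scores are not known to share a scale between lists. Total width is the number of base pairs under peaks within the gene body and the 1 kb start windows. All coordinates are on GRCm38.

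H3K4me3 collects in nucleosomes around the starts of active genes and also at the starts of many silent developmental genes in progenitor cells, where it can sit beside the repressive mark H3K27me3. A peak at such a gene is therefore not a measure of its RNA. Sox2 and Sox1 encode related transcription factors of neural stem cells, and Nes encodes nestin, an intermediate filament protein used as a progenitor marker. Pax6, Emx1, Emx2 and Neurog2 act in the dorsal telencephalon, which forms the cortex, whereas the striatum forms from the ventral telencephalon.

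The sequences below belong to Sox2 and Nes, whose start peaks differed between the lines, and to Emx2, whose upstream window was covered in every list, and are shown to place the peaks against the starts. All 10 members matched a RefSeq promoter window. The windows of 250 bases end just before the first annotated start of GENCODE or RefSeq, and the further Nes segment is the part of the Nes peak held by every list with a peak there. Letters were read from the GRCm38.p6 assembly, on the plus strand, and capitals mark CG dinucleotides, which were counted on the strand shown and read the same on the other.
Sox2 upstream window, chr3:34649745-34649994: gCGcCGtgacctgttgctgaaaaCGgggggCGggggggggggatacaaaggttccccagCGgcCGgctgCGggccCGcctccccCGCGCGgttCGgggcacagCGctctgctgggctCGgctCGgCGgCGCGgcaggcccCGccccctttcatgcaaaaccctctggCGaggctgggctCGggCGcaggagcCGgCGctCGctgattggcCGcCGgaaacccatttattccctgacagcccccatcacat
Nes shared peak segment, chr3:87970322-87970536: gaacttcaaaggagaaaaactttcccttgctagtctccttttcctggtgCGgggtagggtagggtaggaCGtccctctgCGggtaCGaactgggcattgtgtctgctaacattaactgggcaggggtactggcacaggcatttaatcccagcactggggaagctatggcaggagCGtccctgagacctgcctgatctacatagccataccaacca
Nes upstream window, chr3:87970828-87971077: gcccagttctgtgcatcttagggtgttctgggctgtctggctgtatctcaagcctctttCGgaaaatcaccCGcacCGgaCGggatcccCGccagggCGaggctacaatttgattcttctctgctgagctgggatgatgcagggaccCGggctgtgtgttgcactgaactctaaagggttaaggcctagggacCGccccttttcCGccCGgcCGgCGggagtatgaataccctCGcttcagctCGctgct
Emx2 upstream window, chr19:59458122-59458371: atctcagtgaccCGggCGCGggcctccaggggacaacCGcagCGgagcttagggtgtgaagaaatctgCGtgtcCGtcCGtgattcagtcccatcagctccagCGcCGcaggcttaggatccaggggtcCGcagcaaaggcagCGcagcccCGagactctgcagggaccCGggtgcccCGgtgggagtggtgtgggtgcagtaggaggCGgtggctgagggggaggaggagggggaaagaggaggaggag

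The Sox2 window held 27 CG, and 8.56% of 32851 windows of 250 bases upstream of RefSeq starts held as many. The Emx2 window held 16 (25.4% of windows held as many) and the Nes window 14 (29.4%), against a median of 6 over all windows. The Nes shared segment held 5 CG in 215 bases, a number that 52.3% of windows of that length reached, so this segment was not CG-rich. Peaks covered all 250 bases of the Emx2 window in every list. At Nes, the Q7SST peak covered all 250 bases of the window, meclizine covered 46 and the other 4 lists covered 0. At Sox2, loxapine and meclizine covered all 250 bases, cyproheptadine 183, Q111SST and DKI 22 each, and Q7SST 0. Among the members, the Olig2 window with 18 CG and the Pax6 window with 15 were under no peak in any list. The Pax6 start peaks lay at other annotated starts. The Neurog2 window with 8 CG was fully covered in all 6. Over all RefSeq promoter windows, of 300 bases, those touched by a peak held a median of 21 CG and the others 4, in every list. Windows of that length at the RefSeq starts of Sox1 and Emx1 held 37 CG each and were under no peak. The part of CG number in peak cover was not tested.

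Over the 10 genes, 5 were marked in Q7SST, 5 in Q111SST, 3 with cyproheptadine, 6 with meclizine, 5 with loxapine and 4 with DKI. The share of all protein-coding genes marked was 59.9% in Q7SST, 58.4% in Q111SST, 55.4% with cyproheptadine, 58.6% with meclizine, 58.1% with loxapine and 55.8% with DKI. The members were thus marked at a share near or below that of genes at large, with 3 of 10 in the cyproheptadine list and 6 of 10 in the meclizine list as the extremes. Emx2 and Neurog2 were marked in all 6 lists, as were 53.5% of all genes. Counting peaks anywhere in the gene body or start windows, 4 members (Sox2, Pax6, Emx2 and Neurog2) had one in all 6 lists, against 57.9% of genes. Sox1, Emx1, Olig2 and Nkx2-1 were marked in none (37.0% of all genes). The remaining 4 members, Sox2, Nes, Pax6 and Otx2, were marked in some lists only, a state found for 9.52% of all genes. No member was marked in Q7SST alone, as 2.78% of genes were.

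Start peaks of the members were also weaker than the typical start peak. The median percentile over marked members was 47.4 in Q7SST, 41.9 in Q111SST, 35.0 with cyproheptadine, 34.8 with meclizine, 50.3 with loxapine and 39.6 with DKI. Over all marked genes the medians lay between 76.3 (DKI) and 83.0 (loxapine). The Nes peak of Q7SST, at 90.7, was the only member value above these medians.

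**Figure D1:**
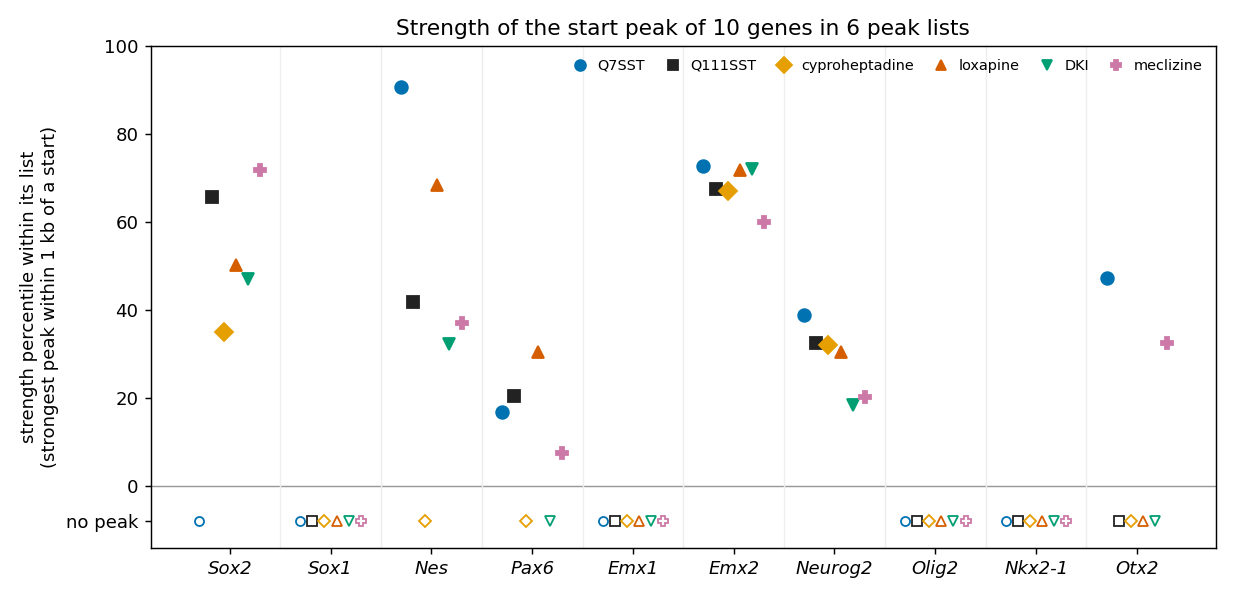
Strength percentile (y axis, position of the strongest peak within 1 kb of a start among all peaks of its list) of the 10 genes (x axis) in the 6 lists, with open symbols in the row "no peak" where a gene had none. Emx2 lies between 59.9 and 72.7 in all 6 lists, Nes reaches 90.7 in Q7SST, and Sox2 is without a start peak in Q7SST alone.

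Sox2, which encodes a transcription factor that maintains neural stem cells, was marked in all 5 lists of mutant cells and not in Q7SST. Over all genes, 0.936% (205 genes) had this pattern. Sox2 is a gene of 1 exon on the plus strand (chr3:34650405-34652461), and it lies inside the noncoding gene Sox2ot, which runs along the same strand, so that marks there cannot be assigned to Sox2 alone. The start peak had a score of 67 in Q111SST (percentile 65.6), 28 with cyproheptadine (35.0), 97 with meclizine (71.8), 46 with loxapine (50.3) and 43 with DKI (47.0). Meclizine and Q111SST were thus the highest and cyproheptadine the lowest.

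The shape of the Sox2 peak also differed between lists. The peaks were 237 bp wide in Q111SST (chr3:34649973-34650209), 950 bp with cyproheptadine (chr3:34649812-34650761), 553 bp with meclizine (chr3:34649692-34650244), 896 bp with loxapine (chr3:34649722-34650617) and 229 bp with DKI (chr3:34649973-34650201). The peaks of cyproheptadine and loxapine, the broadest, ran over the GENCODE start into the coding sequence, whereas those of Q111SST, DKI and meclizine ended from 161 to 204 bp before that start. All 5 peaks shared the 229 bp of the DKI peak. The RefSeq start of Sox2 lies 410 bp upstream of the GENCODE start, at position 34649995, and falls inside each of the 5 peaks. Whether a peak counts as lying over the Sox2 start therefore depends on the annotation.

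A further peak lay over the noncoding last part of the Sox2 exon and beyond the gene's end in all 6 lists, Q7SST included. Its score was 30 in Q7SST, 23 in Q111SST, 18 with cyproheptadine, 38 with meclizine, 32 with loxapine and 21 with DKI, at percentiles from 18.3 to 35.9. The Q7SST peak (chr3:34651757-34652900, 1144 bp) was the broadest of these, at 1352 bp from the start. The wild-type list was therefore not empty at Sox2, but lacked the start peak. Within 1 kb of this peak the annotation also places the start of a noncoding RNA gene, Gm27611. Total width at Sox2 was 705 bp in Q7SST, 922 bp in Q111SST, 1235 bp with cyproheptadine, 1056 bp with meclizine, 1645 bp with loxapine and 382 bp with DKI.

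Sox1, a close relative of Sox2 and an early marker of the neural plate, had no peak in its body or start window in any list (chr8:12395295-12400126), a state shared by 30.1% of all genes. The nearest peak lay 70822 bp away in Q7SST and from 10148 to 10702 bp upstream of the start in the 5 mutant lists. These 5 peaks had scores of 18 in Q111SST, 21 with cyproheptadine, 36 with meclizine, 45 with loxapine and 17 with DKI.

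Nes, the nestin gene (chr3:87971078-87980451, plus strand, 3 annotated starts), showed the reverse difference between the lines. In Q7SST its start peak had a score of 150 (percentile 90.7), was 976 bp wide (chr3:87970281-87971256) and covered all 3 starts and the first coding bases. Start peaks in the mutant lists had scores of 35 in Q111SST (percentile 41.9), 73 with loxapine (68.5), 30 with DKI (32.2) and 39 with meclizine (37.0). With cyproheptadine there was none, and the nearest peak lay 9864 bp away.

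None of the 4 Nes peaks in mutant lists reached a start. The peaks were 223 bp wide in Q111SST (chr3:87970322-87970544), 562 bp with meclizine (chr3:87970312-87970873), 230 bp with loxapine (chr3:87970307-87970536) and 375 bp with DKI (chr3:87970316-87970690), and they ended from 205 to 542 bp before the first start. Left edges of the 5 peaks, Q7SST included, fell within 41 bp of each other, and right edges were spread over 720 bp. The lists thus shared an upstream segment of 215 bp, printed above, and differed in how far the peak ran toward the gene. Among all peaks near a protein-coding start, the Q111SST peak was at the 1.03 percentile by width and the Q7SST peak at the 21.2 percentile. A further peak of Q7SST (chr3:87972061-87973128, score 28) lay mostly in an intron, with 931 of its 1068 bp intronic, and no mutant list had one there. Total width at Nes was 2044 bp in Q7SST, 223 bp in Q111SST, 0 bp with cyproheptadine, 562 bp with meclizine, 230 bp with loxapine and 375 bp with DKI.

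**Figure D2:**
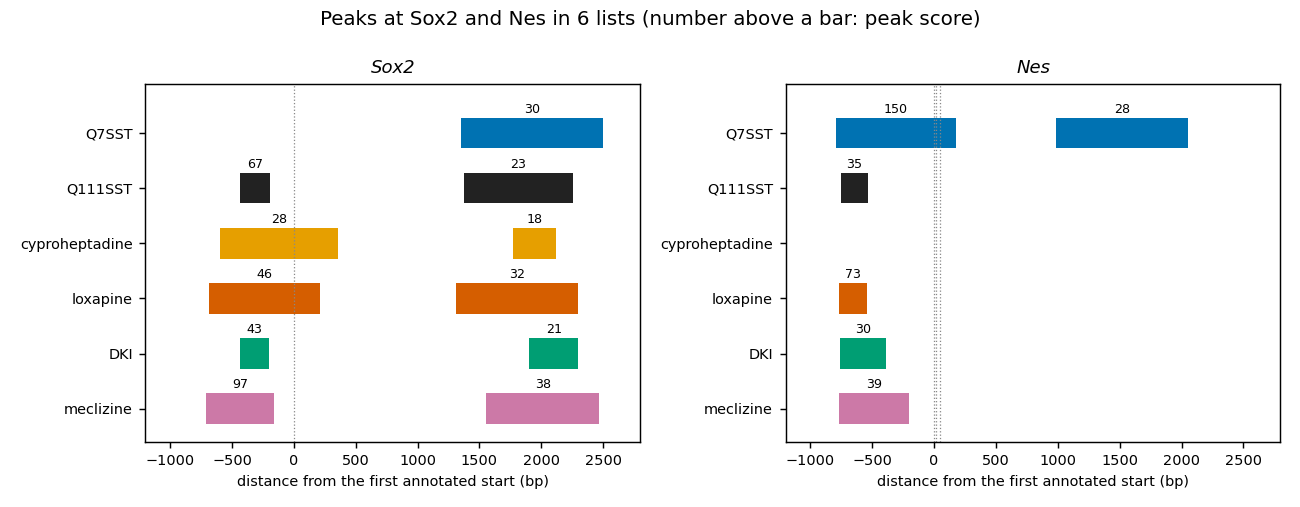
Peaks at Sox2 (left) and Nes (right) in each of the 6 lists (rows) against the distance in bp from the first GENCODE start (x axis), with each peak's score above its bar and dotted lines at annotated starts. The Sox2 start peak is missing from Q7SST, and the Nes peak reaches the starts in Q7SST alone.

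Pax6 encodes a paired-box transcription factor of cortical progenitors and the eye. It is the longest member (chr2:105668900-105697364, plus strand) and has 24 distinct annotated starts, which give it more chances of a call than a gene with 1. Its strongest start peak had a score of 24 in Q7SST (percentile 16.9), 21 in Q111SST (20.6), 28 with loxapine (30.4) and 18 with meclizine (7.46), and none was found with cyproheptadine or DKI. These were weak peaks in each list, and all lay at internal starts. A Q7SST peak over the start of the antisense gene Pax6os1 (chr2:105670252-105670552, score 23) was 1308 bp from the nearest Pax6 start.

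The most regular Pax6 peak was not at a start at all. All 6 lists held a peak in an intron between positions 105687792 and 105689607, from 2470 to 2780 bp from the nearest start. Its score was 94 in Q7SST, 61 in Q111SST, 44 with cyproheptadine, 79 with meclizine, 48 with loxapine and 19 with DKI, or percentiles of 73.4, 62.5, 53.4, 64.5, 52.0 and 14.9 in the same order. In every list that had both, this intronic peak was stronger than the start peak. Total width was 6585 bp over 6 peaks in Q7SST, against 2555 bp in Q111SST, 1049 bp with cyproheptadine, 2531 bp with meclizine, 1540 bp with loxapine and 801 bp with DKI, over 1 or 2 peaks each. Q7SST was thus the broadest at Pax6 and DKI the narrowest.

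Emx1 and Emx2 encode a related pair of homeodomain proteins of the developing cortex, and the 2 genes differed in their marks. Emx1 (chr6:85187438-85204462) had no start peak anywhere. An intronic Emx1 peak was found in Q7SST (chr6:85189410-85190387, score 39), Q111SST (chr6:85190160-85190560, score 18), loxapine (chr6:85189706-85190679, score 10, the lowest score of the list) and meclizine (chr6:85190261-85190575, score 46), from 1972 to 2823 bp from the nearest start. Cyproheptadine and DKI, the lists with the fewest peaks, had none, and their nearest peaks were 49187 and 49212 bp away.

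Emx2 (chr19:59458372-59465357, plus strand) was the more even in strength of the 2 members marked in every list. Its start peak had a score of 92 in Q7SST, 71 in Q111SST, 62 with cyproheptadine, 70 with meclizine, 80 with loxapine and 77 with DKI, and the percentiles spanned 12.8 points, from 59.9 with meclizine to 72.7 in Q7SST. With cyproheptadine the strongest start peak was the intronic one described below, and the peak over the first start had a score of 58. Every list had a peak over the first start, which also covered the start of the antisense noncoding gene Emx2os, so the mark cannot be assigned to either strand.

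What differed at Emx2 was the extent into the gene. Q111SST and meclizine each held an unbroken peak of 3919 bp (chr19:59457212-59461130) and 3859 bp (chr19:59457167-59461025), at the 99.4 and 99.3 percentiles of width among peaks near a start. With cyproheptadine, loxapine and DKI the same stretch held a peak over the start, 1789, 1825 and 1767 bp wide, and a separate intronic peak with scores of 62, 61 and 35. Q7SST held only the start part, a peak of 2137 bp (chr19:59456788-59458924) that began further upstream than any of the others. The intronic part was therefore present in all 5 mutant lists and missing from Q7SST. Total width was 1553 bp in Q7SST, 3759 bp in Q111SST, 2619 bp with cyproheptadine, 3654 bp with meclizine, 2762 bp with loxapine and 2824 bp with DKI.

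Neurog2 encodes a basic helix-loop-helix factor that drives cortical progenitors into neurons (chr3:127633135-127635631, plus strand). A weak peak lay over its start in all 6 lists, with scores of 39 in Q7SST, 28 in Q111SST, 26 with cyproheptadine, 26 with meclizine, 28 with loxapine and 21 with DKI, at percentiles from 18.5 (DKI) to 38.9 (Q7SST). The peak was 2087 bp wide in Q7SST, 2032 bp in Q111SST, 1566 bp with cyproheptadine, 2000 bp with loxapine and 2153 bp with meclizine. In these 5 lists it ran into the coding sequence. With DKI it was 387 bp wide (chr3:127632767-127633153) and ended 18 bp past the start.

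**Figure D3:**
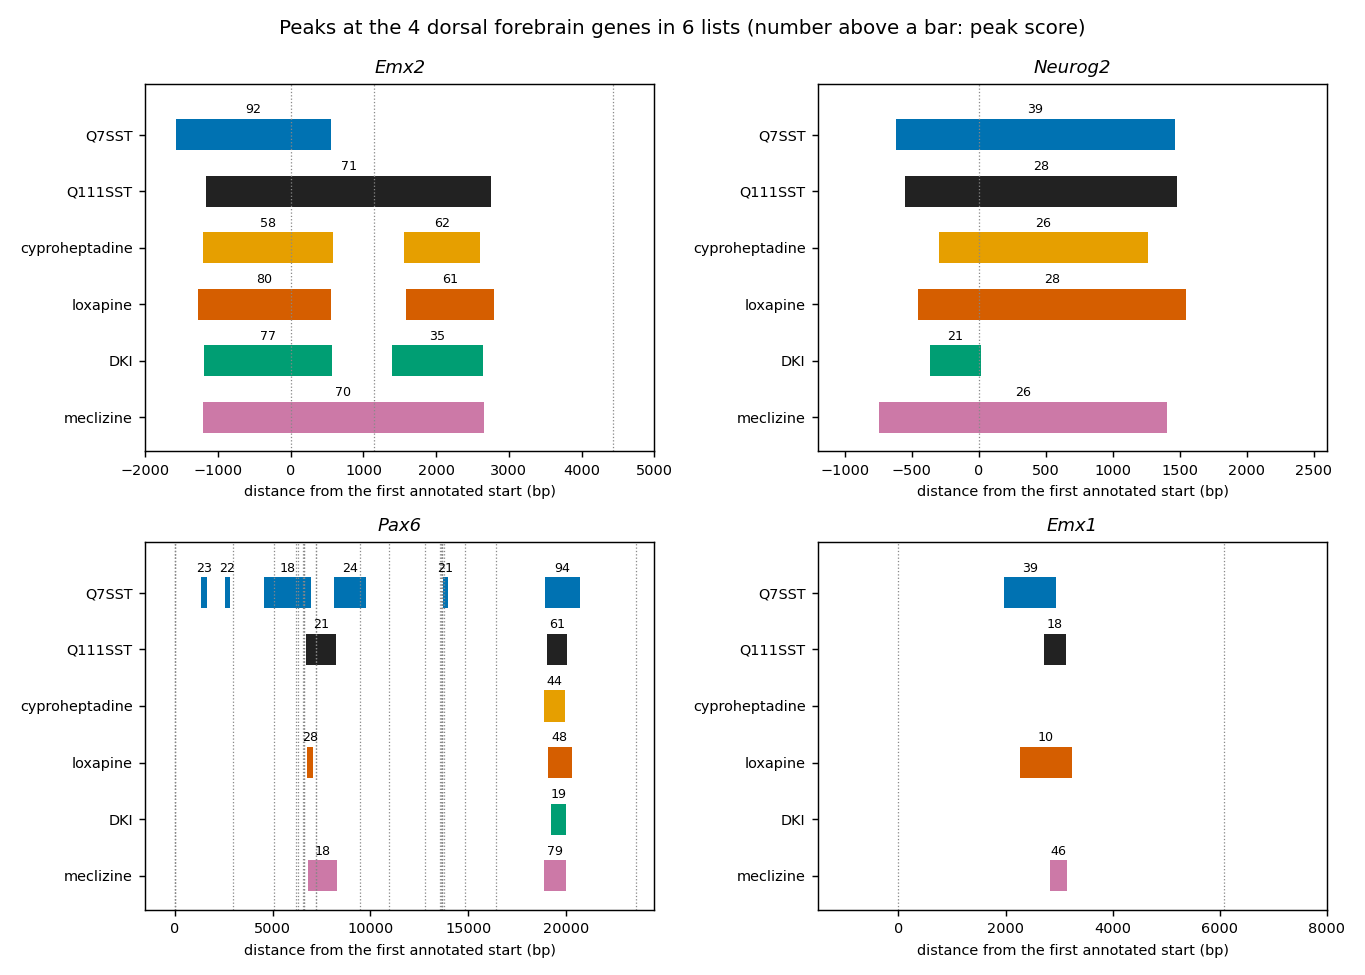
Peaks at Emx2, Neurog2, Pax6 and Emx1 in each of the 6 lists (rows) against the distance in bp from the first GENCODE start (x axis, to its own scale in each panel), with scores above the bars and dotted lines at annotated starts. The Emx2 peak is unbroken in Q111SST and meclizine, the Neurog2 peak of DKI ends at the start, and the Pax6 intronic peak is present in all 6 lists.

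Neither ventral member carried a peak. Olig2, a factor of motor neuron and oligodendrocyte progenitors (chr16:91225457-91228677), had its nearest peak 9402 bp away with cyproheptadine, from 23040 to 23188 bp away in Q111SST, loxapine and meclizine, and 110730 and 110777 bp away in Q7SST and DKI. Nkx2-1, which specifies the medial ganglionic eminence (chr12:56531958-56536908, minus strand), had peaks 4139 and 4125 bp upstream of its first start with loxapine and meclizine (scores 50 and 37), 9647 and 9723 bp away in Q111SST and DKI, and 100062 and 100128 bp away in Q7SST and cyproheptadine. These distances do not tie a peak to either gene.

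Otx2, which specifies forebrain and midbrain (chr14:48657677-48673819, minus strand, 10 distinct starts), was marked in Q7SST and meclizine. The Q7SST peak was 202 bp wide (chr14:48664607-48664808, score 47, percentile 47.4), intronic and 298 bp from an internal start. The meclizine peak, 996 bp wide (chr14:48664497-48665492, score 35, percentile 32.6), covered that start. In the other 4 lists the nearest peak lay from 5443 to 5626 bp upstream of the outermost start. The first start of Otx2 was free of peaks in all 6 lists.

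**Figure D4:**
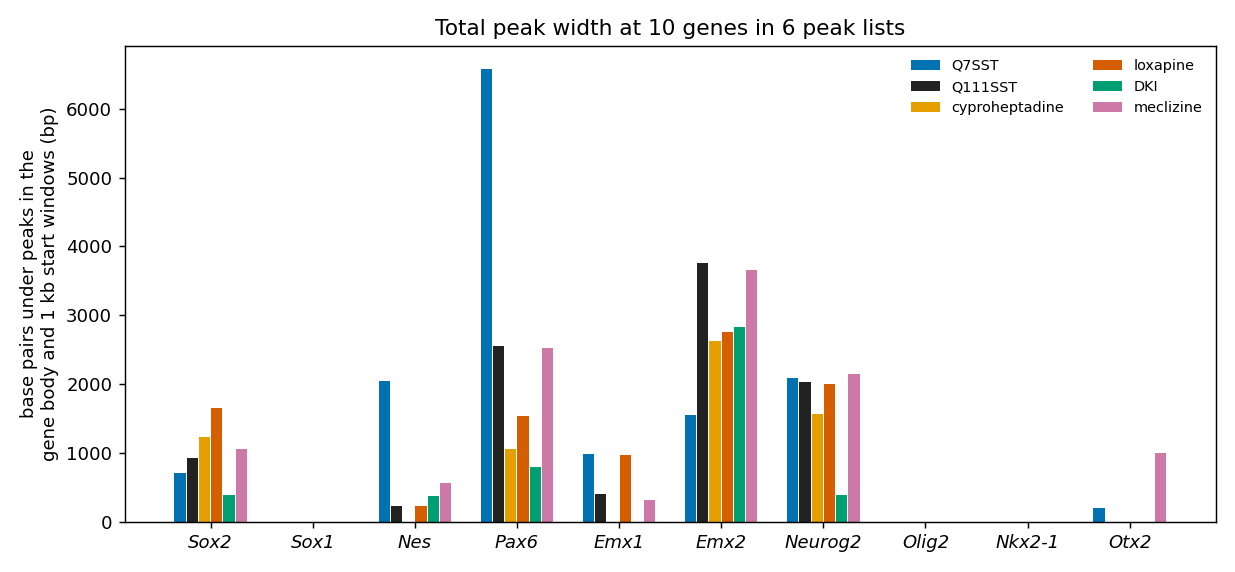
Total peak width (y axis, base pairs under peaks in the gene body and the 1 kb start windows) of the 10 genes (x axis) in the 6 lists (bars from 0, 1 list each and so without error bars). Pax6 reaches 6585 bp in Q7SST, Emx2 is widest in Q111SST at 3759 bp, and Sox1, Olig2 and Nkx2-1 stand at 0 in all lists.

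The first comparison the design implies is between the vehicle-treated lines. Nes had a stronger and broader peak and Pax6 and Emx1 had more base pairs under peaks in Q7SST, whereas Sox2 lacked its start peak and Emx2 was narrower there. Against Q111SST, Otx2 was gained in Q7SST (3.60% of all genes were) and Sox2 was lost (2.08%). Where a peak had to cover the start, Otx2 was marked with meclizine only and Nes in Q7SST only, so the member gained in Q7SST was then Nes. Of the 4 members marked in both lists, Nes was higher by 48.8 percentile points in Q7SST, and 8.85% of genes marked in both were higher by 10 points or more. None was lower by as much, against 13.0% of genes. Emx2, Pax6 and Neurog2 differed by 5.11, -3.69 and 6.48 points. Under single alternatives, Emx2 was higher by 11.5 points among start peaks and by 17.1 with scores of at least 47. Pax6 was higher by 10.9 for a window of 5 kb, and Neurog2 by 12.5 with lists of equal size. A window of 5 kb also took in the peak at the end of the Sox2 exon, at percentile 26.8 in Q7SST. The Sox2 start peak of Q111SST was at 65.6. Intronic Emx1 peaks in that window were at 38.9 in Q7SST and 14.9 in Q111SST. The share of 8.85% was counted without these alternatives. Total width could be compared for 6 members: it was at least 1.5 times as large in Q7SST for Nes (ratio 9.17), Pax6 (2.58) and Emx1 (2.44), against 7.45% of genes, and narrower by as much for Emx2 (ratio 0.413), against 11.5%. With every list reduced to its 30758 highest-scoring peaks, Nes and Emx2 kept these ratios, Pax6 stood at 1810 bp in Q7SST and 1023 bp in Q111SST (ratio 1.77), and Emx1 at 978 and 0 bp. With peaks scoring at least 47 only, Emx1 had 0 bp in both lists. The median difference in strength was 5.79 points over the 4 members and -1.04 over all genes. Whether Sox2 was called lost depended on the window. With 5 kb all 6 lists were marked, since that window took in the peak at the end of the exon. Where a peak had to cover the GENCODE start, only cyproheptadine and loxapine were marked. The RefSeq start lay inside the start peak of every mutant list and under no peak of Q7SST.

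Each compound was then compared with vehicle in mutant cells, as the study set out to find how the compounds act; all 4 comparisons, and the comparison of the lines, share the Q111SST list, so they are not independent. With cyproheptadine, Nes and Pax6 lost their start peaks (3.33% of all genes did) and none was gained (0.306%). The loss at Pax6 was not seen with a window of 5 kb, which marked all 6 lists, nor with RefSeq starts, which marked Pax6 in Q7SST alone, nor with lists of equal size or scores of at least 47, where no list was marked. The loss at Nes was not seen where a peak had to cover the start or with scores of at least 47, since Nes was then unmarked in Q111SST too. Sox2, marked in both, differed by -30.6 points with cyproheptadine minus Q111SST, and 25.9% of genes were lower by 10 or more. None was higher by 10 (3.48%). Of 4 members with width in both lists, Pax6 was narrower by 1.5 times or more (ratio 0.411, against 24.6% of genes) and none was wider (0.961%). With lists of equal size the Pax6 widths were 1049 bp with cyproheptadine and 1023 bp in Q111SST, so the narrowing was absent there, and Neurog2 stood at percentile 25.5 against 11.3. Median strength differed by -0.44 points over 3 members and by -3.74 over all genes.

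With loxapine no member was gained (1.01% of genes) or lost (1.24%). Nes was higher by 26.6 points (7.10% of genes were higher by 10 or more) and Sox2 differed by -15.3 points (9.41% were lower by 10 or more). Emx2 was higher by 4.18 points, and by 11.2 with scores of at least 47. Pax6 was higher by 9.79 points, but differed by -10.5 points for a window of 5 kb. In that window the intronic Emx1 peak was at percentile 0.75 with loxapine and 14.9 in Q111SST. Sox2 and Emx1 were wider, with ratios of 1.78 and 2.43 (3.79% of genes), and Pax6 was narrower at 0.603 (5.77%). With lists of equal size the Sox2 ratio was again 1.78, but Pax6 was the wider with loxapine, at 1224 bp against 1023 bp, Emx1 had 0 bp in both lists, and Neurog2 was unmarked with loxapine. At equal size Sox2 was at percentile 26.4 with loxapine and 54.8 in Q111SST. With scores of at least 47 the Sox2 widths turned to 0 bp with loxapine and 237 bp in Q111SST. Median strength differed by 4.18 points over 5 members and by -0.35 over all genes.

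With DKI, Pax6 lost its start peak (2.88% of genes) and none was gained (0.269%), and this loss was absent under the same 4 alternatives as the loss with cyproheptadine. The window of 5 kb took in the intronic Pax6 peak, which was at percentile 14.9 with DKI and 62.5 in Q111SST. Sox2 and Neurog2 differed by -18.6 and -13.9 points, in a list where 38.8% of genes were lower by 10 or more, and none was higher by 10 (3.55%). Sox2, Pax6 and Neurog2 were narrower, with ratios of 0.414, 0.314 and 0.190, and 30.6% of genes were, whereas Nes was wider at 1.68 (0.763% of genes). With lists of equal size, Neurog2 was instead the higher with DKI (percentile 18.5 against 11.3) and Sox2 was lower by less than 10 points (47.0 against 54.8). Among start peaks the differences were -8.16 points for Sox2 and -4.17 for Neurog2. Emx2 differed by 4.48 points with DKI. It was higher by 14.7 points at equal size, 19.2 among start peaks and 12.2 with scores of at least 47. With lists of equal size the Pax6 widths were 801 bp with DKI and 1023 bp in Q111SST, a ratio of 0.783. The width ratios of Sox2, Neurog2 and Nes at equal size were as before. With scores of at least 47, Emx2 was narrower with DKI, at 1572 bp against 3759 bp (ratio 0.418). Median strength differed by -11.8 points over 4 members and by -6.57 over all genes. Lower strength and narrower peaks were common across the DKI list, which had the fewest peaks.

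With meclizine, Otx2 was gained (1.02% of genes) and none was lost (0.799%). The gain was absent with scores of at least 47, where Otx2 was marked in Q7SST alone. Pax6 and Neurog2 differed by -13.1 and -12.2 points (10.0% of genes were lower by 10 or more), and none was higher by 10 (4.18%). With lists of equal size, Pax6 was marked in neither list and Neurog2 was lost with meclizine. With a window of 5 kb, Pax6 was at 64.5 with meclizine and 62.5 in Q111SST, and in percentiles taken among start peaks only, Pax6 and Neurog2 differed by -3.17 and -3.54 points. Sox2 was higher with meclizine by 6.15 points. The Sox2 difference was 12.3 points among start peaks and 22.0 with scores of at least 47, where its width ratio was 2.33. Within 5 kb, the intronic Emx1 peak was at percentile 43.8 with meclizine and 14.9 in Q111SST. Nes was wider at a ratio of 2.52 (2.84% of genes), and none was narrower (6.40%). With scores of at least 47, Nes had 0 bp in Q111SST and with both meclizine and DKI, so both gains in width lay in peaks under that score. Median strength differed by -7.63 points over 5 members and by -1.54 over all genes. Set side by side at 10 uM, Nes was unmarked with cyproheptadine, at percentile 37.0 with meclizine, 68.5 with loxapine and 32.2 with DKI, and Sox2 was at 35.0, 71.8, 50.3 and 47.0 in the same order. The medians against Q111SST turned to 6.56 with cyproheptadine and 7.91 with DKI with lists of equal size, to -6.29 with loxapine for a window of 5 kb, and to 9.31 with meclizine for scores of at least 47. With 1 list for each compound, no interval can be given for these differences.

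The other genes of neural progenitors and brain regions were counted from lists of 47 genes that exclude the members. Of these, 35 (74.5%) were marked in Q7SST, 26 (55.3%) in Q111SST, 23 (48.9%) with cyproheptadine, 29 (61.7%) with meclizine, 29 (61.7%) with loxapine and 25 (53.2%) with DKI. In all 6 lists 22 were marked, in none 12 and in some 13, beside 53.5%, 37.0% and 9.52% of all genes. Between the vehicle-treated lines, 9 were gained in Q7SST and 0 lost, beside 3.60% and 2.08% of all genes.

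By group, 11 of 13 further progenitor genes were marked in Q7SST and 8 in Q111SST, and 7 and 5 of 10 further dorsal genes. For ventral and glial genes the counts were 10 and 7 of 12, and for genes of the anterior to posterior axis 7 and 6 of 12. Q7SST thus had the higher count in each of the 4 groups, though only by 7 against 6 in the last. Of all genes, 59.9% were marked in Q7SST and 58.4% in Q111SST.

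Among the 6 genes marked in Q7SST alone (2.78% of all genes had this state) were Six3, an anterior forebrain factor (percentile 43.4), Prom1, which encodes the stem cell surface protein prominin (35.2), and Gsx2, Tbr1 and Wnt3a (2.76 each). Msi1, Pou3f2 and Nkx6-1 were marked in Q7SST (32.6, 26.8 and 72.3), not in Q111SST, and again in some of the compound lists. Loxapine and meclizine held all 3 and DKI held Pou3f2. Gsx2, Tbr1 and Wnt3a thus rest on some of the weakest peaks of the Q7SST list. Other genes with a mixed state were Gsx1, without a start peak with DKI alone, Nkx2-2 and Lhx8, without one with cyproheptadine alone, and En2, without one with cyproheptadine and DKI.

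The strongest start peaks of the further genes belonged to Lhx2, a cortical selector gene, in Q7SST (percentile 96.7, against 49.1 in Q111SST and 23.9 to 39.1 with the compounds), to Egr2, a hindbrain factor that is also induced by growth signals (89.1 in Q7SST and 94.2 to 97.0 in the mutant lists), and to Dlx1, a factor of striatal and other ventral progenitors (88.6 to 92.6 over the 6 lists). Lhx2 was thus higher in Q7SST than in Q111SST, as Nes was, and in Q7SST it stood above every dorsal member. Over the 26 further genes marked in both lists, the median difference was 0.31 points, with 14 higher in Q7SST and 12 lower. By 10 points or more, 9 were higher (8.85% of all genes marked in both) and 4 lower (13.0%).

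**Figure D5:**
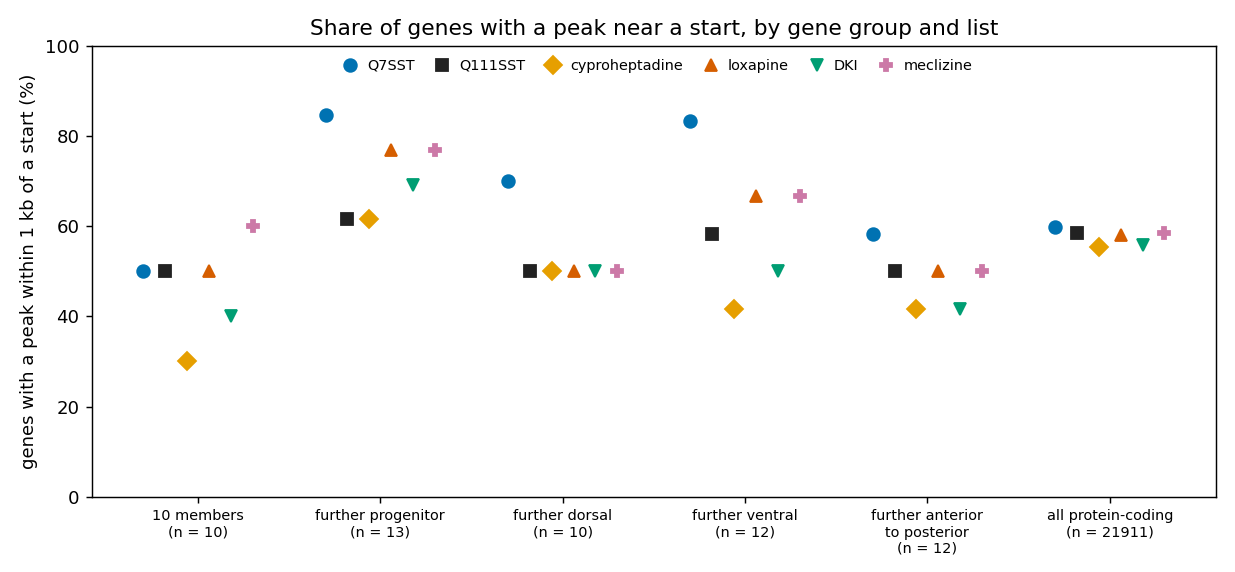
Share of genes with a peak within 1 kb of a start (y axis, percent) for the 10 members, the 4 groups of further genes and all protein-coding genes (x axis, n below each), in the 6 lists. Q7SST is the highest list in each group of further genes, whereas the 10 members range from 3 of 10 marked (cyproheptadine) to 6 of 10 (meclizine).

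The label of the cells was set against marker genes. Of all protein-coding genes, 55.4% (cyproheptadine) to 59.9% (Q7SST) were marked in a list. Genes of striatal neurons were marked for 3 of 5 in Q7SST (Ppp1r1b, Adora2a and Bcl11b), for 1 of 5 (Ppp1r1b) in Q111SST, loxapine and meclizine, and for 0 of 5 with cyproheptadine and DKI, and the dopamine receptor genes Drd1 and Drd2 were unmarked throughout. General neuronal genes were marked for 3 of 5 in every list (Tubb3, Map2 and Syt1), without Dcx and Rbfox3, a share near that of all genes. Mesenchymal genes were marked for 5 of 6 in Q7SST and 6 of 6 in the other lists, at percentiles from 34.5 to 84.7. Col1a2, a collagen gene, was without a start peak in Q7SST alone, as Sox2 was, and so was the astrocyte gene Gfap. Astrocyte genes were marked for 2 or 3 of 5, oligodendrocyte genes for 1 or 2 of 5, endothelial genes for 1 or 2 of 5, microglial genes for 0 or 1 of 5 and genes of other tissues for 0 of 5. Of these, the astrocyte gene Slc1a3, the oligodendrocyte gene Cnp and the endothelial gene Kdr were marked in all 6 lists, the astrocyte gene Aldh1l1 in 4, and the microglial gene Aif1 and the endothelial gene Tek in 2 each, whereas Aqp4, Sox10, Mog, Pecam1, Cdh5 and Cx3cr1 had no start peak in any list. The part of these marker states in the differences at Sox2 and Nes was not tested, and a mark at a start does not show that a cell type was present.

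For each marked member, the protein-coding genes with the most similar strength over the 6 lists were found, taking 0 where a gene was unmarked. Nearest to Sox2 was Mocos (mean absolute difference 3.04 points), followed by BC051142 (3.74) and Col8a2 (4.10), and nearest to Emx2 were Dnajc2 and Psmc2 (1.85 each). Nearest to Nes was Nipsnap1 at 10.1 points, which left Nes with the least close match of the 6 marked members. For Pax6, Neurog2 and Otx2 the nearest genes were Slc26a4 (2.39), Ring1 (4.20) and Gnal (1.40). With 6 values per gene and 21911 genes compared, near matches describe these lists only.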

How the data were processed

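H3K4me3 ChIP-Seq was measured in 6 conditions, each with 1 deposited peak list. The authors' lists give each peak's position and a whole-number score, whose lowest value was 10 in every list. The scale of the score, any input control and any pooling of replicates were not given in the sources used here, although the design text speaks of triplicate treatment. The submitters' processing notes name Trimmomatic 0.36, Bowtie2, SAMtools 1.3, MACS2 and mm10, and peak ends were within the GRCm38 lengths of all 21 chromosomes. Groups came from the sample labels.

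Peaks were compared with GENCODE vM21 starts and gene bodies in Python 3.11.15 with numpy 2.4.6 and pandas 2.3.3. Start peaks of any transcript counted, and genes were counted by symbol. Percentiles used the middle rank of ties. Computations were tested on simulated data. Depth is unknown, so no interval was given.

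All 10 members were named, and further genes where marked in some lists only or as the strongest of a group. Of the genes named by this rule, 1 is not reported here. The 3 genes nearest in pattern were found for each marked member. The members and lists were chosen with earlier results of these data known. Alternatives were start windows of 0 bp and 5 kb, scores of at least 47 (the pooled median), lists of equal size (the strongest 30758 peaks), other sets of starts, percentiles among start peaks, and widths of whole peaks.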

Additional observations from a re-analysis of the deposited data

How the results depend on the processing

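No paired analysis was possible because no condition had replicates, and for the same reason none could be left out. Emx2 was marked in all 6 lists, and Sox1 and Olig2 in none, under every setting tried. The state of the other members depended on the setting. Where a peak had to cover the start (0 bp), Sox2 was marked in 2 lists (cyproheptadine and loxapine) and Nes in Q7SST alone; with 5 kb, Sox2 and Pax6 were marked in all 6, Emx1 in 4 and Nkx2-1 in 2. With scores of at least 47, Pax6 and Neurog2 were marked in 0 lists, Sox2 in 2 (Q111SST and meclizine) and Nes in 2 (Q7SST and loxapine). With RefSeq starts, Pax6 was marked in Q7SST alone. With lists of equal size, Pax6 was marked in 0 and Neurog2 in 4, while Sox2 and Nes kept their 5. The contrast in calls at Sox2 between Q7SST and the 5 mutant lists therefore held with equal sizes and with each other set of starts. It did not hold with 0 bp, 5 kb or the score threshold. The window of 5 kb took in the peak at the end of the Sox2 exon, held by all 6 lists. The 0 bp setting used GENCODE starts, and that of Sox2 lies downstream of its RefSeq start.

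Counts of marked members moved to 3 in Q111SST, 3 with loxapine and 2 with DKI at 0 bp, to 3 in Q7SST, 1 with DKI, 1 with cyproheptadine, 2 with meclizine, 2 with loxapine and 2 in Q111SST at the score threshold, and to 3 with loxapine at equal size. Members gained moved to 2 in Q7SST (score threshold, and RefSeq starts), to 1 with cyproheptadine (0 bp), to 1 with loxapine (0 bp, 5 kb and score threshold) and to 2 or 0 with meclizine (5 kb, score threshold). Members lost moved to 0 with DKI (equal size, RefSeq starts), to 0 in Q7SST (0 bp, 5 kb), to 1 with cyproheptadine (0 bp, score threshold, equal size, RefSeq starts), to 1 with loxapine (0 bp, score threshold, equal size) and to 1 with meclizine (equal size).

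The median difference in strength against Q111SST rests on 3 to 5 members as reported, and on as few as 1 under the alternatives (1 with DKI, loxapine, cyproheptadine and Q7SST and 2 with meclizine at the score threshold, and 2 with DKI, loxapine and cyproheptadine at 0 bp). It reversed to 12.2 and 7.91 points with DKI (score threshold, equal size), to 6.56 with cyproheptadine (equal size), to -6.29 with loxapine (5 kb) and to 9.31 with meclizine (score threshold). Other values were -4.74 (0 bp), -13.9 (5 kb) and -2.93 (among start peaks) with DKI, and 8.70 (5 kb), 17.1 (score threshold), 12.5 (equal size) and 7.40 (among start peaks) in Q7SST. With cyproheptadine they were -1.77 (0 bp), -4.80 (5 kb), -5.42 (score threshold), -3.10 (basic transcripts) and -3.10 (RefSeq starts). With loxapine they were 1.04 (0 bp), 11.2 (score threshold), 0.75 (equal size), 3.26 (among start peaks) and 1.04 (RefSeq starts), and with meclizine -12.2 (0 bp), -1.46 (5 kb), -2.66 (equal size), -3.17 (among start peaks) and -6.25 (RefSeq starts). The cause was not tested. RefSeq starts and starts of protein-coding transcripts were alternatives chosen after seeing the data. Of the values of single genes, 28 strength percentiles under 8 alternatives each gave 35 cases where the gene was no longer marked, 65 where the percentile moved by more than its 95% binomial interval and 124 where it did not. That interval served only to sort the cases and does not measure the spread among replicates, which is unknown. The 35 widths above 0 under 3 alternatives each fell to 0 in 24 cases, fell by over 1.5 times in 10, grew by as much in 2 and moved by less in 69.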

Other observations

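Values of 5 of the further genes are given here, and these genes were chosen after their values were seen. Otx1, a relative of Otx2 that acts in cortical progenitors, was marked in all 6 lists, at percentile 16.9 in Q7SST, 81.0 in Q111SST, 77.5 with loxapine, 74.5 with meclizine, 66.1 with DKI and 64.5 with cyproheptadine. It was thus lower in Q7SST than in any mutant list, while Otx2 was marked in Q7SST and not in Q111SST. En1, a midbrain and hindbrain boundary factor, was at 73.1 in Q7SST, 55.5 in Q111SST, 45.5 with meclizine, 35.8 with loxapine, 23.4 with DKI and 14.4 with cyproheptadine. En2, its relative, was at 80.1 in Q7SST, 27.6 in Q111SST, 44.7 with loxapine and 32.6 with meclizine, and was unmarked with cyproheptadine and DKI. Sox21, a relative of Sox2, was at 65.9 in Q7SST and between 21.8 and 40.6 in the mutant lists, the opposite order to the Sox2 start peak. Vim, which encodes vimentin, an intermediate filament protein that assembles with nestin, was marked in all 6 lists between 49.4 and 63.4, at 54.7 in both vehicle lists. The 48.8 point difference between the lines at Nes thus had no counterpart at Vim.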
